A study of Homo sapiens with 16 samples.

Results

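RNA-seq values of 8 genes of the methionine and S-adenosylmethionine (SAM) cycle were examined in 293T cells, a human embryonic kidney cell line, after depletion of SETD2 or of hnRNP L. The genes were selected by name from the deposited table of 58884 genes and are MAT2A, MAT2B, METTL16, AHCY, AHCYL1, MTR, MTRR and MTAP. They were chosen by a rule written with earlier results of these data known, chiefly the values of MAT2A after SETD2 depletion, so their levels and fold changes are given as a description without a test. All 8 genes were in the table, and all 8 passed the filter on low values, as did 16300 genes in all.

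The cells had received for 72 h a scramble siRNA, an siRNA against SETD2, the methyltransferase that trimethylates lysine 36 of histone H3, or an siRNA against HNRNPL, the gene of a splicing regulator that binds SETD2. Each siRNA had 2 libraries of wild-type 293T cells, numbered 2 and 3 for SETD2 siRNA and 1 and 2 otherwise. Both depletions were compared with the same 2 scramble libraries. The labels do not describe the replicates, but the study's reporting summary calls those of its high-throughput experiments independent biological replicates. Each standard deviation (SD) below rests on 2 libraries. Standard errors (SE) and p-values rest on 2 libraries a group, with a spread pooled over all 6 and moderated across the tested genes.

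Methionine adenosyltransferase joins methionine to ATP to make SAM, the methyl donor of histone, DNA, RNA and small-molecule methyltransferases, SETD2 among them. Each transfer leaves S-adenosylhomocysteine, which is split to homocysteine and remethylated to methionine with a methyl group from folate, while the methylthioadenosine left by polyamine synthesis is salvaged back to methionine. Cells adjust MAT2A through its own RNA: METTL16 methylates adenosines in hairpins of the 3′ untranslated region (3′UTR). When SAM is scarce METTL16 stays on this RNA and promotes removal of the last intron. An RNA that keeps this intron is held in the nucleus.

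MAT2A (ENSG00000168906) lies on the plus strand at chr2:85539168-85545281 (hg38), with 9 exons in its canonical transcript. Its last intron spans chr2:85543035-85543669 and is 635 bases long, and its 3′UTR of 1509 bases lies wholly in exon 9 at chr2:85543773-85545281. The hairpins are shown here because they are the part of MAT2A RNA on which METTL16 acts. The nonamers UACAGAGAA and UACAGAAAA were searched on the transcript strand of the GENCODE 44 3′UTR. They occurred 6 times in the 3′UTR of MAT2A, 5 times as the first and 1 time as the second. Each match is printed 5′ to 3′ with its flanking bases from the hg38 genome, and the capitals mark the nonamer.
Site 1, chr2:85543802-85543830: uggcguaggcUACAGAGAAgccuucaagc
Site 2, chr2:85544589-85544617: ugugaugucaUACAGAGAAgucacagggc
Site 3, chr2:85544774-85544802: cugguguagcUACAGAGAAaccagcuucc
Site 4, chr2:85544889-85544917: auggcguaagUACAGAGAAgccaucaccu
Site 5, chr2:85545004-85545032: caagguguccUACAGAAAAaccuuggguu
Site 6, chr2:85545112-85545140: gcugguguggUACAGAGAAgccagcuugu

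Flanking bases on the 2 sides of every nonamer could pair with each other. The pairing bases lay directly against the nonamer at site 1, whereas at the other sites those on the 5′ side ended 4 or 5 bases before it. How often other sequence could pair in this way was not computed. A run of 4 complementary bases was found at site 1, of 5 at sites 2, 3, 4 and 6, and of 6 at site 5, when the 3′ arm could begin up to 2 bases after the nonamer and the 5′ arm could end up to 7 bases before it. Site 1 began at base 40 of the 3′UTR and stood apart from the other 5, which began between bases 827 and 1350. Of the 19515 canonical 3′UTRs, 4.443% held at least 1 match, and in 1 of them, that of MAT2A, there were 6 or more. Among the 7815 3′UTRs at least as long as that of MAT2A, 4.184% held a match in their first 1509 bases. A match of these letters is a description of the sequence and does not show that METTL16 binds there.

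**Figure D1:**
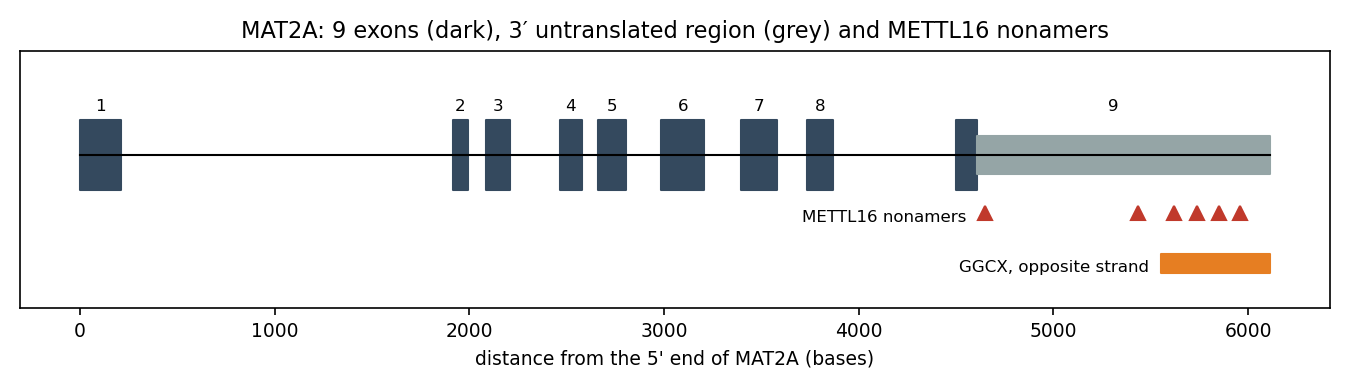
Map of MAT2A drawn to scale, with distance from its 5′ end in bases on the horizontal axis. Dark boxes are the 9 exons (with the 5′UTR not marked off), the grey bar is the 3′UTR, triangles are the 6 METTL16 nonamers and the orange bar is the stretch shared with GGCX on the opposite strand; 1 nonamer lies close to the start of the 3′UTR and 5 lie in its last part.

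The siRNA targets were lowered in the libraries labelled for them. SETD2 measured 13.38 and 11.7 TPM (transcript abundance corrected for length and scaled to the same total in every library) with scramble siRNA, 4.24 and 4.91 TPM after SETD2 siRNA, and 10.8 and 10.24 TPM after hnRNP L siRNA. HNRNPL measured 341.04 and 457.16 TPM in the scramble libraries, 394.73 and 413.42 TPM after SETD2 siRNA, and 25.04 and 28.81 TPM after hnRNP L siRNA. On the log2(TPM + 0.5) scale SETD2 fell by 1.36 (limma adjusted p = 0.00603) and HNRNPL fell by 3.85 (limma adjusted p = 8.48e-06) after their own siRNA. Libraries correlated across the tested genes with Pearson's r of 0.9862, 0.9877 and 0.9875 within the 3 groups and between 0.9736 and 0.9872 across groups, so the groups were not all set apart by this measure.

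MAT2A, the catalytic subunit of methionine adenosyltransferase in most tissues outside the adult liver, measured 92.57 and 85.06 TPM in the scramble libraries, 60.49 and 58.97 TPM after SETD2 siRNA, and 92.65 and 88.93 TPM after hnRNP L siRNA. Both SETD2 siRNA libraries lay below the other 4 libraries, while the hnRNP L siRNA libraries overlapped the scramble libraries. The group means were 88.8 ± 5.31 TPM, 59.7 ± 1.07 TPM and 90.8 ± 2.63 TPM (SD, n = 2 each). The mean with SETD2 siRNA was 67.3% of the scramble mean, and the mean with hnRNP L siRNA was 102.2% of it.

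On the log2(TPM + 0.5) scale the difference of MAT2A from scramble siRNA was -0.57 ± 0.0955 (SE) for SETD2 siRNA and 0.03 ± 0.0955 (SE) for hnRNP L siRNA. The single SETD2 siRNA libraries differed from the single scramble libraries by between -0.646 and -0.488. The difference between hnRNP L siRNA and SETD2 siRNA was 0.60 ± 0.0955 (SE). A gene counted as called where its limma adjusted p was below 0.05 and its fold change exceeded 1.5. The mean of MAT2A differed 1.48-fold from scramble siRNA after SETD2 depletion, short of both cut-offs, and 1.52-fold between the 2 depletions. In the second comparison MAT2A was past both cut-offs. Leaving out any 1 of the SETD2 siRNA libraries 2 and 3 or the hnRNP L siRNA libraries 1 and 2 took it short of at least 1 cut-off. The log2 differences were then 0.57 to 0.63. Since the gene was chosen on its values in these SETD2 siRNA libraries, which enter both comparisons, neither outcome is a test of it.

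In the order of all 16300 tested genes, MAT2A stood at rank 378 from the lowest fold change after SETD2 depletion, with 2.32% of genes at or below it. After hnRNP L depletion 65.4% of genes were at or below it. These are values per gene: the file does not separate MAT2A RNA that has lost its last intron from RNA that keeps it, so the splicing of MAT2A was not analysed here. In bulk RNA, fewer cells with a transcript cannot be told apart from less transcript per cell.

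The last 562 bases of MAT2A, with 4 of its 6 nonamers, overlap the 3′ end of GGCX (ENSG00000115486), which encodes the vitamin K-dependent gamma-glutamyl carboxylase on the opposite strand. GGCX measured 23.36 and 21.75 TPM in the scramble libraries, 20.85 and 21.76 TPM after SETD2 siRNA, and 25.81 and 24.84 TPM after hnRNP L siRNA. Its log2 difference from scramble siRNA was -0.08 ± 0.103 (SE) after SETD2 depletion and 0.16 ± 0.103 (SE) after hnRNP L depletion, neither of which was called. Whether reads were counted by strand is not given in the sources used here, so reads of the shared stretch may be split between the 2 genes.

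MAT2B (ENSG00000038274, chr5:163503114-163519558) encodes the regulatory subunit that binds the MAT2A enzyme. It measured 28.90 and 32.39 TPM in the scramble libraries, 31.61 and 35.72 TPM after SETD2 siRNA, and 30.13 and 31.32 TPM after hnRNP L siRNA. The libraries of either depletion overlapped the scramble libraries, and the log2 difference from scramble was 0.13 ± 0.111 (SE) for SETD2 siRNA and 0.01 ± 0.111 (SE) for hnRNP L siRNA. The MAT2A to MAT2B ratio within a library, a quantity that scaling between libraries does not alter, was 3.20 and 2.63 with scramble siRNA, 1.91 and 1.65 with SETD2 siRNA, and 3.08 and 2.84 with hnRNP L siRNA. Both SETD2 siRNA libraries had a lower ratio than the other 4 libraries. MAT2A was chosen on its values in these SETD2 siRNA libraries, so the ratio is no separate evidence of its lower level.

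METTL16 (ENSG00000127804, chr17:2405562-2511891, minus strand) encodes the RNA methyltransferase described above, which also modifies U6 small nuclear RNA. It measured 17.83 and 18.30 TPM in the scramble libraries, 19.35 and 19.49 TPM after SETD2 siRNA, and 19.34 and 22.11 TPM after hnRNP L siRNA. Its scramble libraries were the lowest of the 6, by a small margin. The log2 difference from scramble siRNA was 0.10 ± 0.11 (SE) for SETD2 siRNA and 0.19 ± 0.11 (SE) for hnRNP L siRNA. The MAT2A to METTL16 ratio was 5.19 and 4.65 with scramble siRNA and 3.13 and 3.03 with SETD2 siRNA. With hnRNP L siRNA it was 4.79 and 4.02. The ratio was again lowest in both SETD2 siRNA libraries, and it too rests on the MAT2A values used in choosing the gene.

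**Figure D2:**
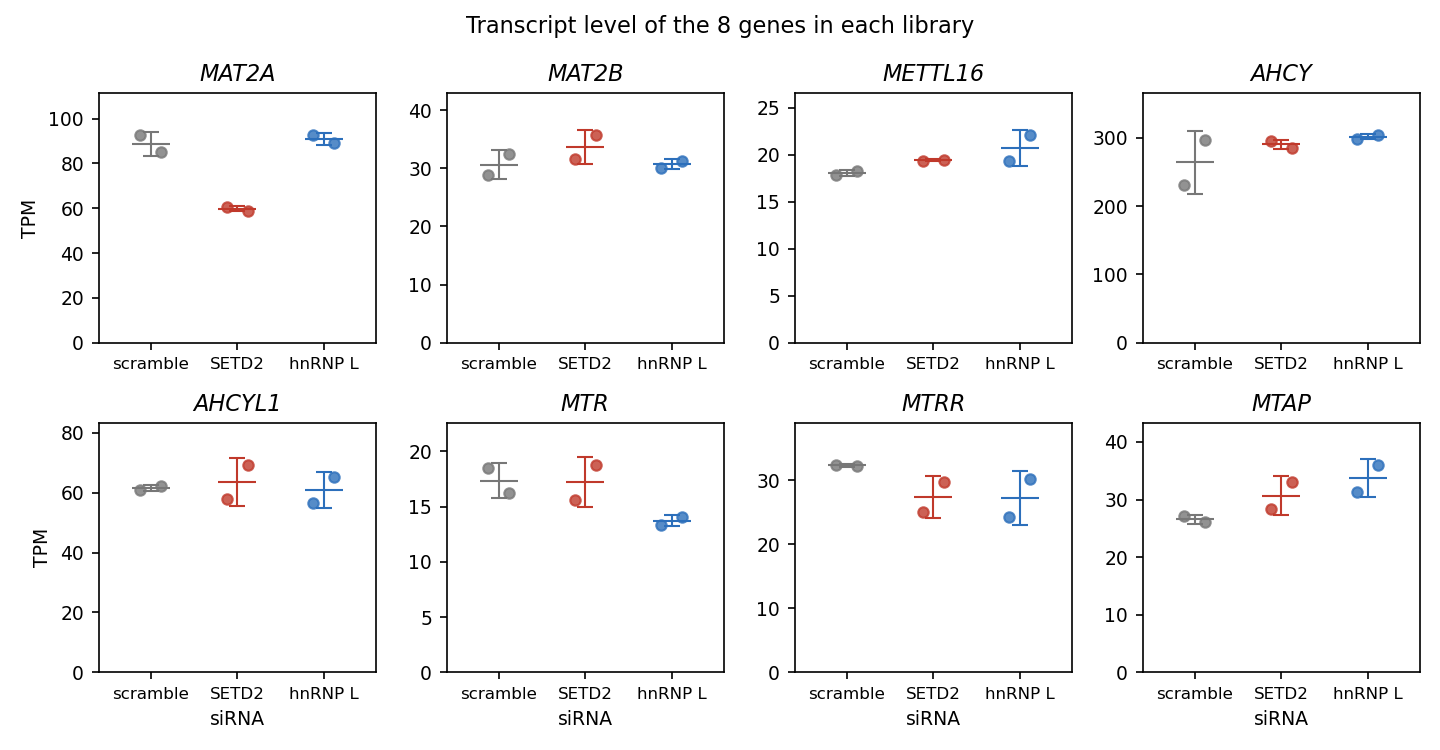
Transcript level in TPM (vertical axis, from 0) of each of the 8 genes for scramble, SETD2 and hnRNP L siRNA (horizontal axis), with points for single libraries and bars for the mean and SD of 2 libraries. MAT2A lies at 60.49 and 58.97 TPM with SETD2 siRNA and at 85.06 TPM or more in the other 4 libraries, while the levels of the other genes lie closer together.

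AHCY (ENSG00000101444, chr20:34280268-34311802, minus strand) encodes the hydrolase that splits S-adenosylhomocysteine, the product that inhibits methyltransferases. It had the highest TPM of the 8 genes in every library, at 231.43 and 297.07 TPM in the scramble libraries, 295.35 and 285.72 TPM after SETD2 siRNA, and 298.74 and 304.17 TPM after hnRNP L siRNA. Scramble library 1 stood below the other 5 libraries, which lay within 285.72 to 304.17 TPM. The log2 difference from scramble siRNA was 0.15 ± 0.125 (SE) after SETD2 depletion and 0.20 ± 0.125 (SE) after hnRNP L depletion. Without scramble library 1 these were -0.03 and 0.02, so the higher values rest on that library. An overlapping long non-coding RNA on the same strand (ENSG00000250917) measured 2.34 to 3.6 TPM, and the AHCY pseudogenes measured at most 0.05 TPM.

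AHCYL1 (ENSG00000168710, chr1:109984765-110023742) encodes a relative of AHCY that lacks its hydrolase activity and binds the inositol trisphosphate receptor. It measured 60.71 and 62.26 TPM in the scramble libraries, 58.00 and 69.34 TPM after SETD2 siRNA, and 56.50 and 65.12 TPM after hnRNP L siRNA. The 3 groups overlapped, and the log2 difference from scramble siRNA was 0.04 ± 0.12 (SE) and -0.02 ± 0.12 (SE) for the respective depletions. MAT2A was more abundant than AHCYL1 in 5 libraries and less abundant in SETD2 siRNA library 3, at 58.97 against 69.34 TPM. The AHCY to AHCYL1 ratio ranged from 3.81 to 5.29 and overlapped between all groups.

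MTR (ENSG00000116984, chr1:236795260-236921278) encodes methionine synthase, which remethylates homocysteine with cobalamin as its cofactor. It measured 18.46 and 16.21 TPM in the scramble libraries, 15.61 and 18.81 TPM after SETD2 siRNA, and 13.38 and 14.08 TPM after hnRNP L siRNA. The hnRNP L siRNA libraries lay below the other 4, whereas the SETD2 siRNA libraries enclosed the scramble libraries. The log2 difference from scramble siRNA was -0.01 ± 0.129 (SE) for SETD2 siRNA and -0.32 ± 0.129 (SE) for hnRNP L siRNA, and the gene was not called in any comparison.

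MTRR (ENSG00000124275, chr5:7851186-7906025) encodes the reductase that returns the cobalamin of methionine synthase to its active state. It measured 32.45 and 32.20 TPM in the scramble libraries, 25.02 and 29.71 TPM after SETD2 siRNA, and 24.22 and 30.16 TPM after hnRNP L siRNA. All 4 depleted libraries lay below both scramble libraries, with a log2 difference of -0.24 ± 0.134 (SE) for SETD2 siRNA and -0.25 ± 0.134 (SE) for hnRNP L siRNA. Neither difference was called, and the 2 libraries of each depletion differed more from each other than the scramble libraries did. FASTKD3, a mitochondrial RNA-binding protein gene on the opposite strand inside MTRR, measured 10.07 to 12.29 TPM in the 6 libraries.

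The MTRR to MTR ratio within a library was 1.76 and 1.99 with scramble siRNA, 1.60 and 1.58 with SETD2 siRNA, and 1.81 and 2.14 with hnRNP L siRNA. The SETD2 siRNA libraries had the lowest ratios of the 6, and the hnRNP L siRNA libraries overlapped the scramble libraries.

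MTAP (ENSG00000099810, chr9:21802636-21937651) encodes the phosphorylase that cleaves methylthioadenosine, the first step of methionine salvage. It measured 27.15 and 26.02 TPM in the scramble libraries, 28.29 and 33.07 TPM after SETD2 siRNA, and 31.35 and 36.06 TPM after hnRNP L siRNA. Every depleted library lay above both scramble libraries, with a log2 difference of 0.20 ± 0.12 (SE) for SETD2 siRNA and 0.33 ± 0.12 (SE) for hnRNP L siRNA, neither of them called. The MTAP to MTR ratio was 1.47 and 1.61 with scramble siRNA, 1.81 and 1.76 with SETD2 siRNA, and 2.34 and 2.56 with hnRNP L siRNA. For this ratio the 3 groups did not overlap, with scramble lowest and hnRNP L siRNA highest. It sets a gene that was higher after hnRNP L depletion over a gene that was lower. The share of all gene pairs separated in this way was not computed. MTAP pseudogenes measured at most 0.04 TPM.

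**Figure D3:**
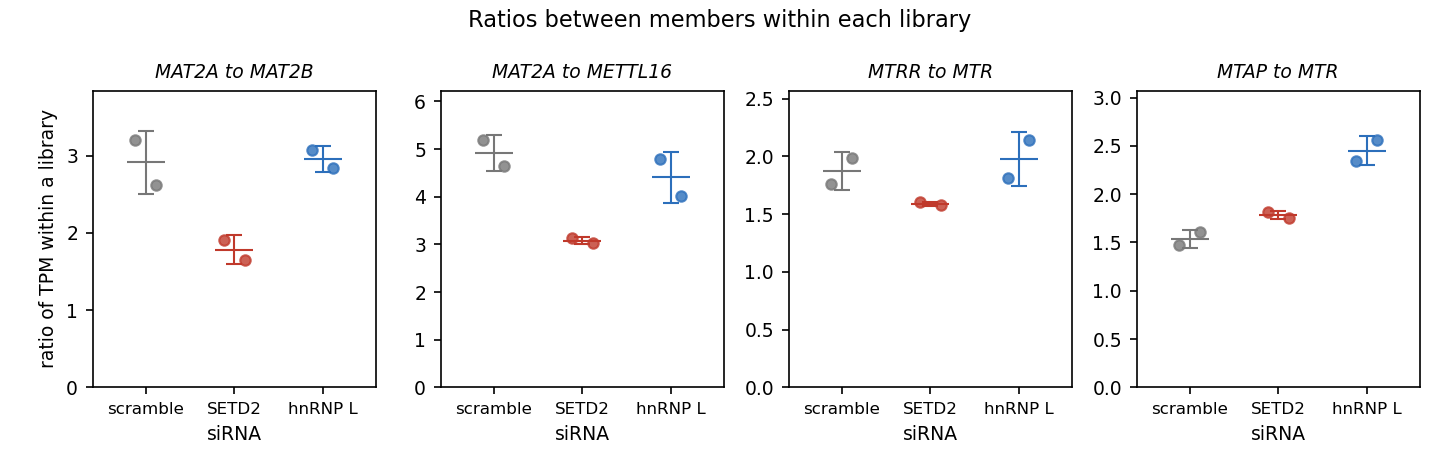
Ratio of the TPM of 2 genes within each library (vertical axis, from 0) for scramble, SETD2 and hnRNP L siRNA, with points for single libraries and bars for the mean and SD of 2 libraries. MAT2A to MAT2B falls between 1.65 and 1.91 in the SETD2 siRNA libraries and between 2.63 and 3.20 in the others, and MTAP to MTR is between 2.34 and 2.56 in the hnRNP L siRNA libraries.

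Summed over the 8 genes, the level was 509.5 and 569.5 TPM in the scramble libraries, 533.7 and 550.8 TPM after SETD2 siRNA, and 566.3 and 592.0 TPM after hnRNP L siRNA. MAT2A made up 18.2% and 14.9% of this sum with scramble siRNA, 11.3% and 10.7% with SETD2 siRNA, and 16.4% and 15.0% with hnRNP L siRNA. The sum of the SETD2 siRNA libraries thus lay between the 2 scramble libraries. The share of MAT2A was lower in the SETD2 siRNA libraries than in any other library, which restates the values on which MAT2A was chosen. AHCY alone made up between 45.4% and 55.3% of the sum, so the sum follows AHCY more than any other gene.

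After SETD2 depletion 0 of the 8 genes were called, against 0.104% of all tested genes. The 2 groups did not overlap for 4 of the 8 genes, MAT2A and MTRR being lower and METTL16 and MTAP higher, against 43.5% of all tested genes. After hnRNP L depletion 0 of the 8 were called, against 6.76% of all tested genes, and 5 of the 8 did not overlap, against 56.6%: MTR and MTRR were lower, and METTL16, AHCY and MTAP were higher.

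Between hnRNP L and SETD2 siRNA 1 of the 8 genes, MAT2A, was called, against 6.84% of all tested genes. Groups did not overlap for 4 of the 8, against 59.8%: MAT2B and MTR were lower and MAT2A and AHCY higher with hnRNP L siRNA. The median log2 difference of the 8 genes was 0.0731 after SETD2 depletion, 0.0191 after hnRNP L depletion and 0.0205 between the depletions, beside 0.0139, -0.0843 and -0.099 over all tested genes. The fold changes of MAT2A were used in choosing the genes, so nothing is read from these counts about the 8 genes as a set.

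The order of the 3 groups differed from gene to gene. MAT2A was lowest with SETD2 siRNA, and its scramble and hnRNP L siRNA levels overlapped. MTR was lowest with hnRNP L siRNA, with overlap between SETD2 and scramble siRNA. METTL16 and MTAP were lowest with scramble siRNA, with overlap between the depletions, and MTRR was highest with scramble siRNA, again with overlap between the depletions. MAT2B had its highest mean with SETD2 siRNA, above the libraries of hnRNP L siRNA but overlapping scramble, AHCY had its highest with hnRNP L siRNA, and AHCYL1 overlapped throughout.

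**Figure D4:**
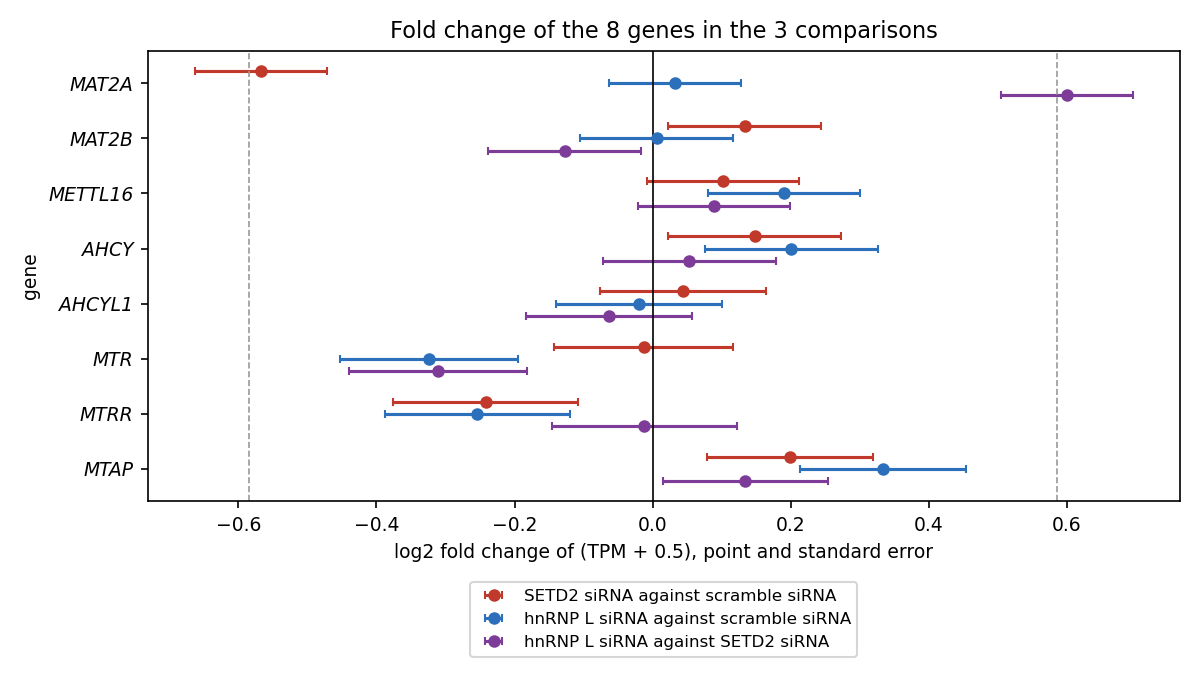
Log2 fold change of TPM + 0.5 (horizontal axis) of the 8 genes (vertical axis) in the 3 comparisons, with points for the estimate and bars for its standard error, and dashed lines at a 1.5-fold difference. Against scramble siRNA MAT2A lies at -0.57 for the SETD2 depletion and at 0.03 for that of hnRNP L, and at 0.60 between the depletions, and the other 7 genes lie between -0.32 and 0.33.

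The genes most like MAT2A were sought among 8029 tested genes with a mean of at least 10 TPM, by the root mean square (RMS) difference of centred log2 values over the 6 libraries. The nearest was COX7A2L, a factor of respiratory supercomplex assembly, with an RMS difference of 0.0614 and Pearson's r = 0.975. It measured 94.52 and 99.37 TPM in the scramble libraries, 64.28 and 64.94 TPM after SETD2 siRNA, and 96.87 and 96.21 TPM after hnRNP L siRNA. EZH1, a histone H3 lysine 27 methyltransferase, followed with an RMS difference of 0.0657, and then KIF1C, a kinesin motor, with 0.0772, NSUN5P1, a pseudogene of an RNA methyltransferase gene, with 0.0816, and PTPRM, a receptor tyrosine phosphatase, with 0.0858. The other 7 cycle genes had RMS differences of 0.285 to 0.386 from MAT2A. The value of a typical gene among the 8029 was not computed, so these do not show the cycle genes to be unusually unlike MAT2A. These values describe likeness over 6 libraries that share 3 treatments.

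Around the cycle, 9 lists of enzymes, carriers and RNA-modifying factors held 70 genes of the table, of which 62 passed the filter on low values. The lists were drawn up with earlier results of these data known. After SETD2 depletion 0 of the 62 were called by limma, and 8, or 12.9%, had an unadjusted p under 0.05, beside 13.1% of all tested genes. After hnRNP L depletion 2 of the 62, or 3.23%, were called, 1 higher and 1 lower, beside the 6.76% of all tested genes. Between hnRNP L and SETD2 siRNA 4 of the 62, or 6.45%, were called, 2 higher and 2 lower, beside 6.84%.

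In methionine salvage and polyamine synthesis 1 of 8 genes was called after hnRNP L depletion. SRM, the spermidine synthase that uses decarboxylated SAM and releases methylthioadenosine, measured 159.2 and 208.76 TPM in the scramble libraries, 185.51 and 194.67 TPM after SETD2 siRNA, and 309.06 and 284.3 TPM after hnRNP L siRNA. The hnRNP L siRNA libraries lay above the other 4. SRM rose by a log2 difference of 0.70 ± 0.133 (SE; limma adjusted p = 0.0152) against scramble siRNA and of 0.64 ± 0.133 (SE; limma adjusted p = 0.0206) against SETD2 siRNA. Its 0.06 ± 0.133 (SE) after SETD2 depletion was not called. SMS, the spermine synthase, measured 177.24 and 188.37 TPM in the scramble libraries and 131.24 and 159.46 TPM after hnRNP L siRNA, a log2 difference of -0.34 ± 0.117 (SE) that was not called. ODC1, the ornithine decarboxylase that starts the pathway, ranged from 143.79 to 188.16 TPM.

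Of 7 genes of methionine and SAM transport and SAM sensing, 1 was called after hnRNP L depletion. An unadjusted limma p under 0.05 was reached by 3 of the 7 after SETD2 depletion, beside 13.1% of all tested genes. After hnRNP L depletion it was reached by 5 of the 7, beside 28.4%. The median log2 differences of the list were -0.259 and -0.419, beside 0.0139 and -0.0843 over all tested genes. Medians of the other lists ran from -0.186 to 0.167 after SETD2 depletion and from -0.269 to 0.122 after hnRNP L depletion. The list was drawn up with earlier results of these data known and was not tested as a set, so no enrichment is read from these values. SLC43A2, a carrier of large neutral amino acids including methionine, measured 3.64 and 3.31 TPM in the scramble libraries, 2.96 and 3.04 TPM after SETD2 siRNA, and 1.69 and 1.94 TPM after hnRNP L siRNA. It fell by 0.78 on the log2 scale against scramble siRNA (SE 0.157; limma adjusted p = 0.0185) and fell by 0.60 against SETD2 siRNA (SE 0.157; limma adjusted p = 0.045). SLC3A2 and SLC7A5, the heavy and light chains of the main methionine importer, are the most abundant genes of the list. SLC3A2 measured 165.32 and 156.01 TPM in the scramble libraries, 123.55 and 118.39 TPM after SETD2 siRNA, and 117.05 and 109.34 TPM after hnRNP L siRNA. Its log2 difference from scramble siRNA was -0.41 ± 0.0949 (SE; limma adjusted p = 0.184) for SETD2 siRNA and -0.50 ± 0.0949 (SE; limma adjusted p = 0.0146) for hnRNP L siRNA, the latter short of the 1.5-fold cut-off. SLC7A5 measured 80.86 and 70.47 TPM in the scramble libraries and 54.99 to 62.29 TPM in the 4 depleted libraries, and it was not called.

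In cobalamin handling, which supplies the cofactor of MTR, 1 of 8 genes was called between the depletions. MMAB is the adenosyltransferase that makes the mitochondrial form of cobalamin, not the form that MTR uses. It measured 65.69 and 78.17 TPM in the scramble libraries, 83.29 and 74.19 TPM after SETD2 siRNA, and 49.08 and 51.39 TPM after hnRNP L siRNA. It was lower with hnRNP L than with SETD2 siRNA by a log2 difference of -0.64 ± 0.116 (SE; limma adjusted p = 0.0134). Against scramble siRNA its log2 difference of -0.51 ± 0.116 (SE; limma adjusted p = 0.0285) stayed under the 1.5-fold cut-off. CD320, the receptor for cobalamin bound to transcobalamin, ranged from 65.99 to 78.99 TPM, and MMADHC, which directs cobalamin to MTR or to the mitochondrion, from 48.76 to 58.85 TPM.

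Among 14 genes of the m6A machinery and of the U6 partners of METTL16, 1 was called, between the depletions. RBM15, an adaptor of the m6A writer complex, measured 11.92 and 11.02 TPM in the scramble libraries, 9.33 and 10.81 TPM after SETD2 siRNA, and 14.46 and 18 TPM after hnRNP L siRNA. It was higher with hnRNP L than with SETD2 siRNA by 0.66 ± 0.141 on the log2 scale (SE; limma adjusted p = 0.0227), and its difference from scramble siRNA was not called after either depletion. CPSF6, a subunit of the 3′ end cleavage factor CFIm, ranged from 107.35 to 136.14 TPM and ALKBH5, an m6A demethylase, from 69.11 to 93.29 TPM. All calls among these neighbouring genes were lost when hnRNP L siRNA library 1 or 2 was left out, and those between the depletions also without SETD2 siRNA library 2 or 3. The call of SRM against scramble siRNA was lost without scramble library 1, and that of SLC43A2 without scramble library 2.

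In the other lists no gene was called by limma in any comparison. The folate cycle, which carries the methyl group used by MTR, had 14 tested genes with 1, 4 and 5 of them at an unadjusted p under 0.05 after SETD2 depletion, after hnRNP L depletion and between the 2, which is 7.14%, 28.6% and 35.7% of them, beside 13.1%, 28.4% and 28.5% of all tested genes. MTHFD1, a cytosolic enzyme that interconverts folate one-carbon units, measured 156.4 and 172.0 TPM in the scramble libraries, 171.98 and 183.85 TPM after SETD2 siRNA, and 123.01 and 125.11 TPM after hnRNP L siRNA. Its log2 difference of -0.40 ± 0.0973 (SE; limma adjusted p = 0.0337) after hnRNP L depletion stayed under the 1.5-fold cut-off. SHMT2, the mitochondrial serine hydroxymethyltransferase, ranged from 223.6 to 278.52 TPM.

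Transsulfuration, which draws homocysteine off the cycle, had 2 tested genes. CBS ranged from 95.8 to 119.89 TPM and CTH from 29.25 to 39.69 TPM. In removal of adenosine, the other product of AHCY, ADK ranged from 34.72 to 39.64 TPM and ADA from 19.79 to 26.95 TPM. Among the 5 tested small-molecule and phospholipid methyltransferases, PEMT, which methylates phosphatidylethanolamine, ranged from 35.46 to 51.13 TPM.

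The list of paralogs and liver enzymes had 5 genes in the table, of which 2 passed the filter on low values. MAT1A, the liver form of methionine adenosyltransferase, measured 0.02 to 0.25 TPM, where MAT2A measured 58.97 TPM or more. BHMT, which remethylates homocysteine with betaine, measured at most 0.06 TPM, and BHMT2 was listed at 0 in all libraries. GNMT, a glycine methyltransferase that consumes SAM, measured 0.36 to 0.9 TPM, and AHCYL2, a close relative of AHCYL1, 5.17 to 7.3 TPM.

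**Figure D5:**
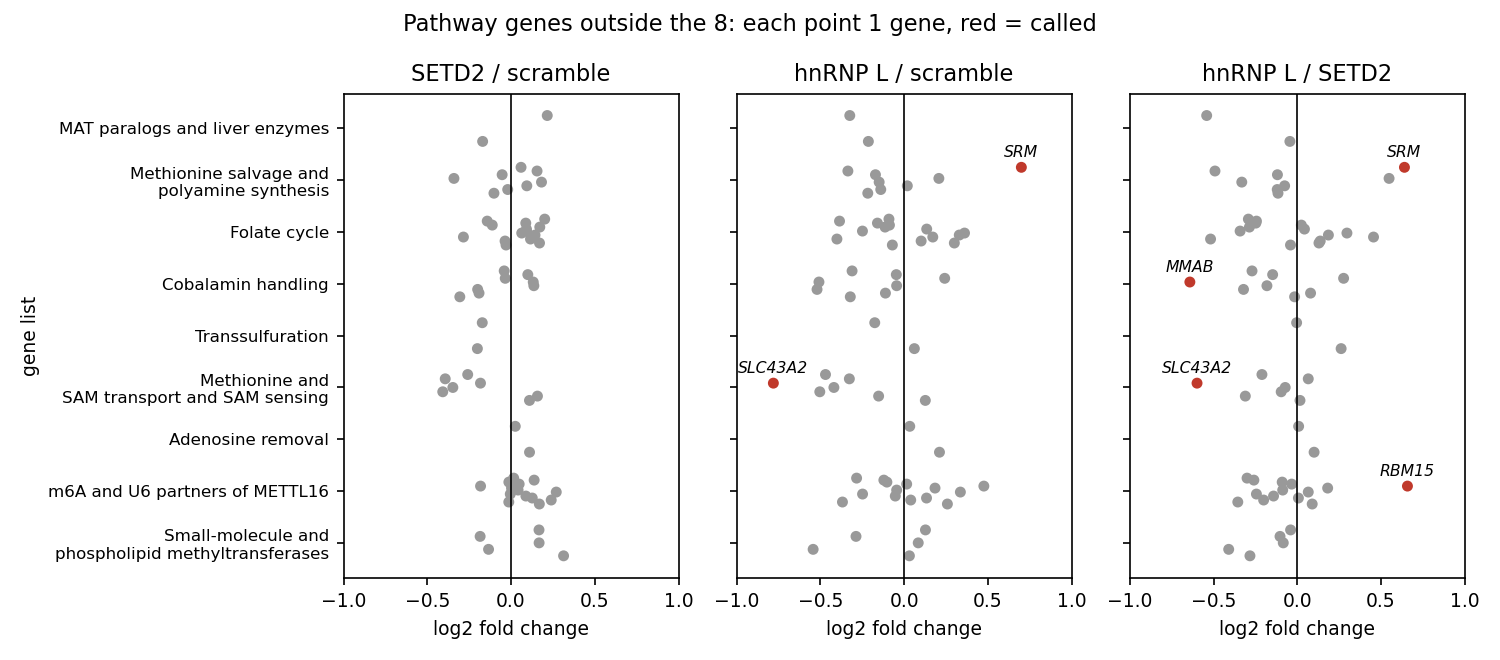
Log2 fold change of TPM + 0.5 (horizontal axis) of the 62 tested neighbouring genes by list (vertical axis) in each of the 3 comparisons, with 1 point per gene and called genes in red. No gene is called after SETD2 depletion, SRM and SLC43A2 are called after hnRNP L depletion, and SRM, RBM15, MMAB and SLC43A2 between the depletions.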

How the data were processed

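RNA-seq of 6 libraries was analysed. The H3K36me3 ChIP-seq samples were not analysed here. According to the methods and the submitters' processing notes, the authors mapped read pairs onto the hg38 genome and Ensembl genes by STAR 2.6.1c and deposited gene-level TPM from RSEM 1.3.0. Since TPM hold no read counts, the depth behind a value and its counting error are unknown here.

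The members and gene lists were chosen with earlier results of these data known. Values were transformed to log2(TPM + 0.5), which understates changes of low genes, and 16300 genes with a mean of at least 0.5 TPM were tested. limma 3.58.1 (R 4.3.3) was fitted to all 6 libraries with 1 mean per siRNA and a variance trend. The p-values were adjusted by Benjamini-Hochberg over all tested genes, with cut-offs of 0.05 on the adjusted p and 1.5 on the fold change for a call. A two-sided exact permutation test of 2 against 2 libraries cannot go below p = 0.333, so none was used. The fit was tested on simulated data.

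Named genes were the members, the siRNA targets, called genes of each list (at most 4) and, with fewer than 2 called, its 2 further genes of highest mean TPM, the 5 genes most like MAT2A, and overlapping genes or pseudogenes. MAT1A, BHMT and BHMT2 were added after their values were seen. One gene that this rule names is not reported here. Positions and 3′UTRs are from GENCODE 44 and hg38. Python 3.11.15, pandas 2.3.3, NumPy 2.4.6 and Matplotlib 3.10.9 were used. Alternatives covered the pseudocount, the filter, biotypes, scaling, the fit, leaving out each library, and a replicate block.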

Additional observations from a re-analysis of the deposited data

How the results depend on the processing

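The log2 difference of MAT2A after SETD2 depletion was -0.643 to -0.507 over 15 alternatives and was not called in any of them. Median-ratio scaling moved MAT2A to 0.13 for hnRNP L siRNA against scramble and to 0.71 for hnRNP L against SETD2 siRNA, and split the called genes of these comparisons into 54.7% and 51.0% lower, where the deposited TPM gave 74.0% and 68.6% and quantile normalization 53.2% and 50.9%. Where a library was left out, the lone sample of its group was assumed to vary like the others. Without the filter on low values 1, 235 and 186 genes were called in the 3 comparisons (17, 1102 and 1115 with it), and 0 of the 69 neighbouring genes in the comparisons of hnRNP L siRNA. With a minimum mean of 1 TPM 27 genes, and with protein-coding and lncRNA genes only 60 genes, were called after SETD2 depletion. Leaving out each library gave 8 to 38 genes called after SETD2 depletion, 172 to 821 after hnRNP L depletion and 127 to 1006 between them, with 0 to 2 and 0 to 4 neighbouring genes called in the last 2. Replicate numbers 1 and 2 are shared by scramble and hnRNP L siRNA. The deviations of same-numbered libraries correlated with r = -0.1256 across genes. With 2 libraries a group this cannot show whether the numbers pair the samples, and the main fit did not pair them. With the replicate block 715 genes and 1 neighbouring gene were called, and with a crossed block, chosen after seeing the data, 1406 genes. The differences of AHCY, AHCYL1 and MTR after SETD2 depletion changed sign in 1, 2 and 2 of 15 alternatives, those of MAT2A, MAT2B and AHCYL1 after hnRNP L depletion in 1, 2 and 3 of 17, and those of METTL16, AHCYL1 and MTRR between the depletions in 1, 4 and 4 of 15, and none of the 8 genes was called against scramble siRNA under any alternative. No cause of these changes was tested. With 2 libraries a group and no counts, small differences cannot be resolved.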
